A study of Mus musculus with 3 samples.

Results

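Regulatory T cells of the mouse spleen were taken from 3 single-cell RNA libraries by a gate on Foxp3, the gene of the transcription factor that defines the lineage. Members were thus chosen by the measured UMIs of that gene and 3 others. A barcode had to show 300 or more genes and 500 or more UMIs, with no more than 10% of its UMIs mitochondrial. It was a member if it held at least 1 UMI of Cd3e, a T-cell receptor signalling subunit, and at least 1 UMI of Foxp3. It also had to hold 0 UMIs of Cd79a, a B-cell receptor subunit, and 0 UMIs of Cd8b1, the CD8 beta chain of cytotoxic T cells. A UMI is a molecular tag that counts 1 captured RNA molecule. The gate kept 1226 of the 49499 barcodes within the quality limits: 384 of 15864 in the MASH-Phe-free library, 415 of 17651 in the MASH library and 427 of 15984 in the Chow library.

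Each treatment (MASH-Phe-free, MASH, Chow) is 1 library, with no replicate. The labels name the tissue as spleen and the treatments as given here. MASH is the usual short form of metabolic dysfunction-associated steatohepatitis, a fatty liver disease with inflammation. The strain, age and number of animals behind each spleen library, the feeding schemes and whether the animals bore tumours are not given in the sources used here for these libraries. The design text of the series describes C3H mice fed a high-fat and then a modified methionine- and choline-deficient diet and injected under the skin with HCA-1 liver cancer cells, but it does so for bulk RNA of the tumours. With 1 library per treatment no difference between treatments could be tested. Values are given side by side with intervals that cover counting error only.

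Regulatory T cells restrain other lymphocytes. They take up interleukin-2 through a high-affinity receptor, remove or block costimulatory ligands through CTLA-4, and release or activate suppressive mediators such as interleukin-10 and transforming growth factor beta. In the spleen they are known to range from resting cells, which carry the homing receptor CCR7, to effector cells with receptors for inflamed tissue, and a follicular kind enters B-cell areas. Foxp3 itself chose the members here, so its level is only described.

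The members summed to 3433380 UMIs in MASH-Phe-free, 4083555 in MASH and 4171661 in Chow, with medians of 6964, 7775 and 7902 UMIs per cell in MASH-Phe-free, MASH and Chow. Their median mitochondrial share was 1.72% in MASH-Phe-free, 1.72% in MASH and 1.85% in Chow. The libraries held 16778, 19219 and 16495 barcodes in MASH-Phe-free, MASH and Chow, and pairs of libraries shared between 65 and 89 barcode sequences, of which 0 were members in both. Scrublet marked 12, 8 and 10 members of MASH-Phe-free, MASH and Chow as doublets. Over all barcodes it marked between 1.94% and 2.24%, below the 13.2% to 15.4% expected from the number of barcodes, so doublets may remain among the members.

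At the gate's edge, Foxp3 was found in 520 barcodes of MASH-Phe-free, 552 of MASH and 583 of Chow before the other conditions. Of these, 50 in MASH-Phe-free, 48 in MASH and 34 in Chow had no Cd3e UMI. Cd79a UMIs removed 36, 48 and 60 Cd3e-positive barcodes in MASH-Phe-free, MASH and Chow, and Cd8b1 UMIs removed 52, 46 and 71, with 2, 5 and 9 barcodes removed by both. Members with a single Foxp3 UMI numbered 69 in MASH-Phe-free, 88 in MASH and 70 in Chow, and 267, 263 and 314 members of MASH-Phe-free, MASH and Chow held 3 or more. Foxp3 stood at 544, 479.7 and 533 counts per 1000000 UMIs (CPM) in the summed members of MASH-Phe-free, MASH and Chow.

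Cells just inside the edge carried the regulatory T-cell program at a lower level than cells further in, and well above cells just outside it. Ikzf2, which encodes the transcription factor Helios, stood at 799 CPM in MASH-Phe-free, 1311 in MASH and 1153 in Chow members with 1 Foxp3 UMI. In members with 2 or more it stood at 1476 CPM in MASH-Phe-free, 1512 in MASH and 1487 in Chow. In Cd3e-positive barcodes without Foxp3, Cd79a and Cd8b1 UMIs it stood at 107 CPM in MASH-Phe-free, 122 in MASH and 100.2 in Chow. Ctla4, the inhibitory receptor that binds CD80 and CD86, followed the same order, with 481, 497 and 489 CPM at 1 Foxp3 UMI in MASH-Phe-free, MASH and Chow. It reached 743, 729.6 and 792 CPM at 2 or more UMIs, and 64.4, 56.3 and 63.3 CPM without Foxp3 UMIs, in MASH-Phe-free, MASH and Chow. These values describe the edge and carry no test.

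The label was checked against Il2ra (CD25, the alpha chain of the interleukin-2 receptor), Ctla4 and Ikzf2, which the gate did not use. At least 2 of these 3 genes had a UMI in 89.8% of members of MASH-Phe-free, 88.4% of MASH and 90.6% of Chow. In CD4 T cells without a Foxp3 UMI (at least 1 UMI of Cd3e and Cd4, 0 of Cd79a and Cd8b1; below, CD4 cells) the shares were 13.5% in MASH-Phe-free, 11.3% in MASH and 9.23% in Chow. None of the 3 genes was seen in 3.39% of members of MASH-Phe-free, 6.27% of MASH and 3.75% of Chow. Cd4, also not part of the rule, had a UMI in 78.1% of members of MASH-Phe-free, 81.7% of MASH and 84.5% of Chow.

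Shares were compared across cell types after each cell was thinned to 4081 UMIs, which left out 31 members of MASH-Phe-free, 22 of MASH and 29 of Chow. Il2ra was then seen in 46.5% of members of MASH-Phe-free, 48.6% of MASH and 52.3% of Chow. Its share was 5.67%, 2.83% and 4.05% of CD4 cells, and 0.938%, 0.912% and 0.549% of B cells, which should lack it, in MASH-Phe-free, MASH and Chow. B cells had medians of 7882, 8014.5 and 8147 UMIs in MASH-Phe-free, MASH and Chow before thinning, near those of the members. Unthinned, Il2ra was seen in 59.4%, 59.0% and 66.0% of members of MASH-Phe-free, MASH and Chow. The markers therefore went with the label in all 3 libraries, and the members are called Foxp3-gated or gated cells below.

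**Figure D1:**
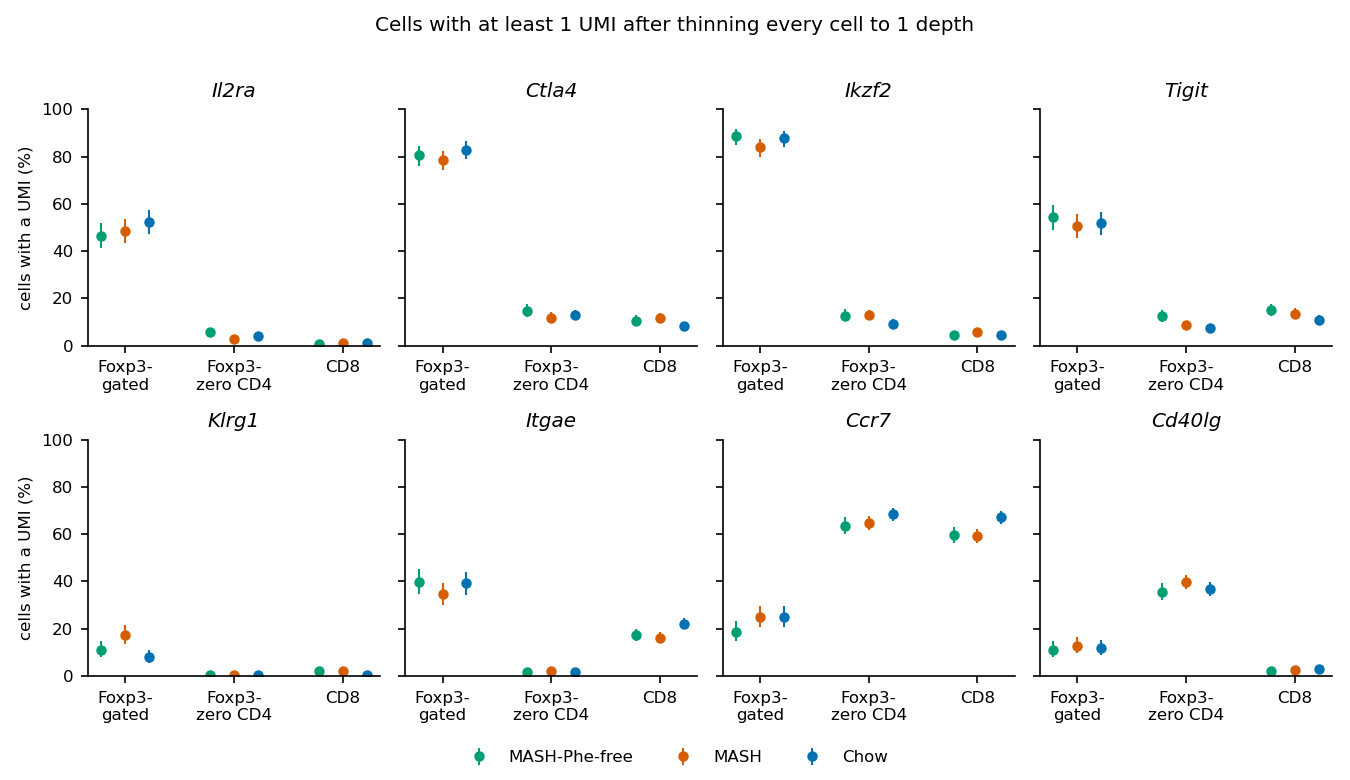
Share of cells with at least 1 UMI of 8 genes after thinning to 4081 UMIs (vertical axis, %), in Foxp3-gated cells, Foxp3-zero CD4 cells and CD8 cells of MASH-Phe-free, MASH and Chow (dots, with 95% Clopper-Pearson bars). Ikzf2 was seen in 84.0% to 88.7% of gated cells and 9.33% to 12.9% of CD4 cells, whereas Ccr7 and Cd40lg were seen in more CD4 than gated cells.

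A small number of gated barcodes carried much RNA of other lineages, and these differed between libraries. Barcodes with at least 3 genes of 1 of 8 other-lineage marker lists, or over 1% of their UMIs in such a list (below, mixed barcodes), numbered 21 (5.47%) in MASH-Phe-free, 22 (5.3%) in MASH and 12 (2.81%) in Chow. The summed neutrophil list (S100a8, S100a9, Csf3r, Camp) stood at 2797 CPM in MASH-Phe-free, 54.6 in MASH and 2548 in Chow members. In each library 3 barcodes held 92.3% (MASH-Phe-free), 71.3% (MASH) and 86.6% (Chow) of those UMIs. The erythroid list, with the haemoglobin genes Hbb-bs and Hba-a1, stood at 1585, 2199 and 8.39 CPM, and the monocyte and macrophage list (Lyz2, Csf1r, Cd68, Adgre1) at 499.5, 634 and 213 CPM, in MASH-Phe-free, MASH and Chow. With the mixed barcodes left out, a choice made after the data were seen, the neutrophil list stood at 73.2 CPM in MASH-Phe-free, 15.7 in MASH and 58.6 in Chow members. The erythroid list then stood at 62.2 CPM in MASH-Phe-free, 144 in MASH and 8.33 in Chow members, so its difference between libraries remained in part. The monocyte and macrophage list then stood at 32.9, 13.2 and 27.3 CPM in MASH-Phe-free, MASH and Chow. Over all members, a UMI of the erythroid list was seen in 102 cells of MASH-Phe-free, 265 of MASH and 30 of Chow. The plasma-cell list stood at 67.6 CPM in MASH-Phe-free, 78.9 in MASH and 119 in Chow members, with 37.8% of its Chow UMIs in 1 cell. The lists of NK, dendritic and B cells and of platelets summed to no more than 47.5 CPM in any library. Values below are over all members, and where leaving out the mixed barcodes moved a named gene's interval across 1 or ended a named call, the value without them is given as well.

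**Figure D2:**
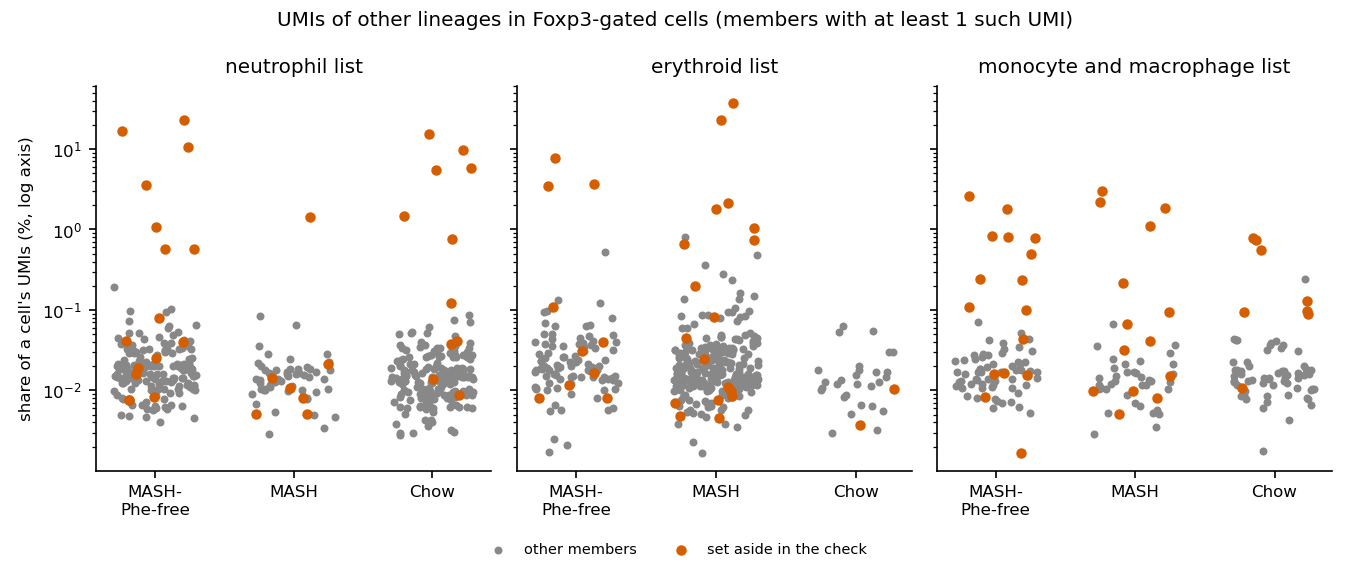
Share of a gated cell's UMIs (vertical log axis, %) in the neutrophil, erythroid and monocyte-macrophage marker lists, 1 point per cell with at least 1 such UMI, for MASH-Phe-free, MASH and Chow. Orange points are the barcodes with RNA of another lineage that were set aside in the check, 21 in MASH-Phe-free, 22 in MASH and 12 in Chow, and they hold the highest neutrophil values of each library.

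Regulatory T cells made up a larger part of the non-CD8 T cells in MASH-Phe-free than in the other libraries. Of barcodes with Cd3e and without Cd79a and Cd8b1 UMIs, 28.5% were members in MASH-Phe-free (384 of 1349, 95% Clopper-Pearson interval 26.1% to 31.0%), 24.8% in MASH (415 of 1672, 22.8% to 27.0%) and 22.2% in Chow (427 of 1927, 20.3% to 24.1%). As ratios these were 1.15 for MASH-Phe-free over MASH (95% interval 1.02 to 1.29), 1.12 for MASH over Chow (0.995 to 1.26) and 1.28 for MASH-Phe-free over Chow (1.14 to 1.45). The order depended on the denominator. Of all filtered barcodes, members were 2.42% in MASH-Phe-free, 2.35% in MASH and 2.67% in Chow, so that Chow stood highest. Thinned to 4081 UMIs, the shares of the non-CD8 T cells were 26.1% in MASH-Phe-free, 21.0% in MASH and 19.5% in Chow.

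The program that sets gated cells apart from other CD4 cells was read by comparing the summed UMIs of both sets within each library. Gated cells held more RNA of the interleukin-2 receptor, of suppressive mediators, of receptors of effector regulatory T cells and of the cell cycle, and less of the resting T-cell program and of helper ligands. With edgeR's quasi-likelihood test, library as a block and Benjamini-Hochberg adjustment over 11803 genes, 2477 genes (21.0%) rose and 2121 (18.0%) fell at an adjusted p under 0.05. The median fold change was -0.02 on the log2 scale over all genes tested. The sets were divided by the Foxp3 UMIs of the same cells, the gate genes (Foxp3, Cd3e, Cd4, Cd79a, Cd8b1) stayed out of the test, and the p-values measure the spread of 3 libraries that are also 3 treatments.

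All 14 genes of the regulatory T-cell identity list rose, against 21.0% of all genes tested, with a median log2 fold change of 2.48. Il2ra (ENSMUSG00000026770) stood at 253 CPM in MASH-Phe-free, 299.98 in MASH and 274 in Chow gated cells, against 21.1 CPM in MASH-Phe-free, 11.7 in MASH and 16.3 in Chow CD4 cells. The groups did not overlap, and the log2 fold change was 3.94 ± 0.16 (SE) with an adjusted p of 9.03e-07. Ctla4 stood at 696 CPM in MASH-Phe-free, 689 in MASH and 751 in Chow gated cells, against 65.9 CPM in MASH-Phe-free, 57.4 in MASH and 62.5 in Chow CD4 cells, a log2 fold change of 3.36 ± 0.05 (adjusted p = 6.39e-08). Ikzf2 stood at 1356 CPM in MASH-Phe-free, 1477 in MASH and 1442 in Chow gated cells, against 87.4 CPM in MASH-Phe-free, 103 in MASH and 75.7 in Chow CD4 cells, a log2 fold change of 3.85 ± 0.08 (adjusted p = 7.49e-08). Each of these was high in every gated set and low in every CD4 set.

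The highest fold change of the list belonged to Lrrc32, which encodes GARP, the receptor that holds latent transforming growth factor beta on the cell surface. It stood at 24.2 CPM in MASH-Phe-free, 29.4 in MASH and 32.1 in Chow gated cells, against 2.35 CPM in MASH-Phe-free, 1.02 in MASH and 0.704 in Chow CD4 cells, a log2 fold change of 4.35 ± 0.34 (adjusted p = 3.71e-05). Lrrc32 entered the test only through the gated cells, so a rise was the only call open to it. Among the costimulatory receptors of the tumour necrosis factor family, Tnfrsf4 (OX40) had a log2 fold change of 3.13 and Tnfrsf18 (GITR) one of 1.91. Ikzf4, a relative of Helios, had a log2 fold change of 3.22, and Nrp1, the semaphorin co-receptor neuropilin-1, one of 2.96. The remaining members lay between 1.04 for Lrig1, a growth factor receptor antagonist, and 2.01 for Capg, an actin-capping protein. Il2rb, the beta chain of the interleukin-2 receptor, lay between them at 1.75, as did Gpr83 at 1.52, Socs2, a feedback inhibitor of cytokine signalling, at 1.46 and Izumo1r (folate receptor 4) at 1.08.

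Of 13 tested genes of suppressive function 12 rose and 1 fell, against 21.0% and 18.0% of all genes tested, with a median log2 fold change of 2.11. Areg, the epidermal growth factor family member amphiregulin, stood at 11.7 CPM in MASH-Phe-free, 9.55 in MASH and 7.91 in Chow gated cells, against 0 CPM in MASH-Phe-free, 0.102 in MASH and 0.264 in Chow CD4 cells. It was nearly absent from CD4 cells, and its log2 fold change was 5.72 ± 0.52. Areg entered the test only through the gated cells, so a rise was the only call open to it. Gzmb, the protease granzyme B, stood at 111 CPM in MASH-Phe-free, 111 in MASH and 71.2 in Chow gated cells, against 4.70 CPM in MASH-Phe-free, 9.38 in MASH and 3.43 in Chow CD4 cells, a log2 fold change of 3.89 ± 0.17 (adjusted p = 1.54e-06). Both were higher in each gated set than in any CD4 set.

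Tigit, an inhibitory receptor for nectin-family ligands, stood at 384 CPM in MASH-Phe-free, 347 in MASH and 403 in Chow gated cells, against 56.7 CPM in MASH-Phe-free, 42.3 in MASH and 38.1 in Chow CD4 cells, a log2 fold change of 2.91 ± 0.11 (adjusted p = 6.19e-07). Il10 was low throughout, at 4.37 CPM in MASH-Phe-free, 6.37 in MASH and 9.35 in Chow gated cells, against 0.294 CPM in MASH-Phe-free, 1.73 in MASH and 0.792 in Chow CD4 cells. Its log2 fold change was 2.67 ± 0.43 (adjusted p = 0.00201), and after thinning it was seen in 1.98% of gated cells in MASH-Phe-free, 1.78% in MASH and 1.51% in Chow, against 0.145%, 0.630% and 0.176% of CD4 cells. The same comparison in B cells gave 0.313%, 0.399% and 0.337% in MASH-Phe-free, MASH and Chow. Il10, too, entered the test only through the gated cells, so a rise was the only call open to it.

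Itgb8, an integrin chain that activates latent transforming growth factor beta, rose with a log2 fold change of 3.13, and Fgl2, a secreted fibrinogen-like protein, with one of 2.64. Entpd1 (CD39) and Nt5e (CD73), which turn extracellular ATP into adenosine, rose by 2.11 and 1.0 on the log2 scale. Ebi3, a subunit of interleukins 27 and 35, had a log2 fold change of 2.05, Lgals1 (galectin-1) one of 1.67, Lag3, an inhibitory receptor for MHC class II, one of 1.19 and Tgfb1 one of 0.40. Il12a, the other subunit of interleukin-35, was too sparse to test. Prf1, which encodes the pore-forming protein perforin, was the gene that fell. It stood at 16 CPM in MASH-Phe-free, 14.0 in MASH and 14.9 in Chow gated cells, against 31.3 CPM in MASH-Phe-free, 42.5 in MASH and 32.2 in Chow CD4 cells, a log2 fold change of -1.41 ± 0.14 (adjusted p = 0.00014), with every gated set below every CD4 set.

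The effector list rose for 19 of 22 tested genes, against 21.0% of all genes tested, with a median log2 fold change of 1.81. In this list 1 gene fell, against 18.0%. Klrg1, a receptor for cadherins found on terminal effector lymphocytes, stood at 80.1 CPM in MASH-Phe-free, 143 in MASH and 66.9 in Chow gated cells, against 2.06 CPM in MASH-Phe-free, 1.02 in MASH and 1.58 in Chow CD4 cells. That was the highest fold change named by the rule for this comparison, 5.79 ± 0.23 on the log2 scale (adjusted p = 9.47e-07). Ccr8, a chemokine receptor of tissue regulatory T cells, stood at 50.1 CPM in MASH-Phe-free, 43.8 in MASH and 36.2 in Chow gated cells, against 2.50 CPM in MASH-Phe-free, 0.918 in MASH and 1.06 in Chow CD4 cells, a log2 fold change of 4.77 ± 0.21 (adjusted p = 1.73e-06). Itgae (CD103), the integrin chain that binds E-cadherin, stood at 178 CPM in MASH-Phe-free, 182 in MASH and 225 in Chow gated cells, against 7.05 CPM in MASH-Phe-free, 9.49 in MASH and 7.65 in Chow CD4 cells, a log2 fold change of 4.43 ± 0.11 (adjusted p = 1.08e-07). None of these 3 genes passed 10 CPM in CD4 cells. Klrg1 and Ccr8 entered the test only through the gated cells, so a rise was the only call open to them.

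Tnfrsf9 (4-1BB) had a log2 fold change of 3.96, Prdm1, which encodes the effector transcription factor Blimp-1, one of 2.94 and Tnfrsf1b, the second receptor of tumour necrosis factor, one of 2.55. Id2, an inhibitor of E-protein transcription factors, fell. It stood at 80.7 CPM in MASH-Phe-free, 114 in MASH and 111 in Chow gated cells, against 287 CPM in MASH-Phe-free, 285 in MASH and 201 in Chow CD4 cells, a log2 fold change of -1.48 ± 0.15 (adjusted p = 0.000145). Tbx21, the gene of T-bet, did not pass the test (log2 fold change 0.28, adjusted p = 0.0846).

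Of 12 resting T-cell genes 10 fell and 1 rose, against 18.0% and 21.0% of all genes tested, with a median log2 fold change of -1.23. Tcf7, the gene of the transcription factor TCF-1, stood at 160.2 CPM in MASH-Phe-free, 186 in MASH and 189.8 in Chow gated cells, against 618 CPM in MASH-Phe-free, 754 in MASH and 680.5 in Chow CD4 cells, a log2 fold change of -2.10 ± 0.05 (adjusted p = 1.07e-07). Ccr7, the receptor that guides cells to lymph node T zones, stood at 87.4 CPM in MASH-Phe-free, 113 in MASH and 109.5 in Chow gated cells, against 392 CPM in MASH-Phe-free, 372 in MASH and 396 in Chow CD4 cells, a log2 fold change of -2.07 ± 0.08 (adjusted p = 7.46e-07). Bcl2, an inhibitor of cell death, stood at 109 CPM in MASH-Phe-free, 141 in MASH and 199 in Chow gated cells, against 457 CPM in MASH-Phe-free, 352 in MASH and 601 in Chow CD4 cells, a log2 fold change of -1.81 ± 0.11 (adjusted p = 1.20e-05). The gated sets lay below the CD4 sets of all libraries for each of them.

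Satb1, a chromatin organiser, fell by 2.0 on the log2 scale. Lef1 and Bach2, transcription factors of naive cells, fell by 1.73 and 1.65, and Il7r, the interleukin-7 receptor chain, fell by 0.81. Foxo1, a transcription factor that drives homing receptor genes, rose by 0.23 (adjusted p = 0.0191).

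Helper ligands were low in gated cells: of 6 tested helper cytokine genes 3 fell and 0 rose, against 18.0% and 21.0% of all genes tested. Cd40lg, the ligand with which helper cells activate B cells, stood at 31.5 CPM in MASH-Phe-free, 30.6 in MASH and 31.4 in Chow gated cells, against 119 CPM in MASH-Phe-free, 146 in MASH and 124 in Chow CD4 cells, a log2 fold change of -2.22 ± 0.08 (adjusted p = 6.09e-07). Il2 was listed at 0 UMIs in the gated cells of all 3 libraries, against 2.06 CPM in MASH-Phe-free, 2.55 in MASH and 3.08 in Chow CD4 cells. It is 1 of the 3 genes that fell, but it entered the test only through the CD4 cells, so no rise could be called. After thinning Il2 was seen in 0 of 353 gated cells of MASH-Phe-free, 0 of 393 of MASH and 0 of 398 of Chow, which allows shares of cells with an Il2 UMI of up to 0.850%, 0.763% and 0.754% in MASH-Phe-free, MASH and Chow and sets no limit on cells that make Il2 unseen. Il4 also fell (log2 fold change -2.97), whereas Ifng and Tnf did not pass the test. Like Il2, Il4 entered the test only through the CD4 cells, so no rise could be called. Of the helper genes that fell, only Cd40lg could have been called in either direction.

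Other programs moved in part, and their counts stand beside the 21.0% of all genes tested that rose and the 18.0% that fell. The lists are not independent. The interleukin-2 and STAT5 list shares Il2ra, Il2rb and Socs2 with the identity list and Bcl2 with the resting list. The homing list shares genes with the effector, resting and follicular lists, and the follicular list shares Pdcd1 with the effector list. Of 14 genes of the interleukin-2 and STAT5 pathway 9 rose and 2 fell, led by Pim1, a STAT5 target kinase (1.76), and Cish, a feedback inhibitor (1.24). Of 17 cell-cycle genes 16 rose, and the proliferation marker Mki67 stood at 321 CPM in MASH-Phe-free, 259.8 in MASH and 272 in Chow gated cells, against 113 CPM in MASH-Phe-free, 109 in MASH and 59.2 in Chow CD4 cells (log2 fold change 1.48 ± 0.15, adjusted p = 0.000177). Of 19 homing genes 10 rose and 6 fell: Cxcr3, the receptor for interferon-induced chemokines, stood at 300.3 CPM in MASH-Phe-free, 308 in MASH and 273 in Chow gated cells, against 103 CPM in MASH-Phe-free, 83.3 in MASH and 55.8 in Chow CD4 cells, whereas Cxcr6 fell by 2.18 on the log2 scale. Of 35 interferon-induced genes 15 rose and 3 fell with a median of 0.24, and of 14 genes of MHC class I presentation 11 rose with a median of 0.21. Of 8 follicular genes 2 rose and 1 fell, against 21.0% and 18.0% of all genes tested. Those that rose were the inhibitory receptor gene Pdcd1 (0.94) and Sh2d1a (0.62), which encodes the adaptor SAP. Sostdc1, a secreted antagonist of bone morphogenetic proteins, fell: it was listed at 0 in the gated cells of all 3 libraries, against 2.79 CPM in MASH-Phe-free, 7.55 in MASH and 14.9 in Chow CD4 cells. Sostdc1 entered the test only through the CD4 cells, so no rise could be called.

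Of the genes named by size of fold change, several lie outside these lists. Rln3, a relaxin-family peptide hormone, stood at 115 CPM in MASH-Phe-free, 131 in MASH and 117 in Chow gated cells, against 6.46 CPM in MASH-Phe-free, 5.00 in MASH and 2.37 in Chow CD4 cells, a log2 fold change of 4.63 ± 0.19 (adjusted p = 9.96e-07). Lamc1, a laminin chain, had a log2 fold change of 4.04 and Cd80, a ligand of CD28 and CTLA-4, one of 3.89. At the other end stood Pdlim4, a LIM-domain protein, with 2.91 CPM in MASH-Phe-free, 7.59 in MASH and 4.55 in Chow gated cells, against 82.8 CPM in MASH-Phe-free, 73.4 in MASH and 99.2 in Chow CD4 cells, a log2 fold change of -4.21 ± 0.20 (adjusted p = 2.23e-06). Vipr1, a receptor of vasoactive intestinal peptide, fell by 3.83, Igfbp4, a binding protein of insulin-like growth factors, by 3.55 and Themis, an adaptor of T-cell receptor signalling, by 3.20 on the log2 scale. The cyclic nucleotide phosphodiesterase genes Pde5a and Pde3b fell by 3.77 and 3.53.

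Of 77 tested variable segments of the T-cell receptor 7 rose and 11 fell, smaller shares than the 21.0% and 18.0% of all genes tested. Trbv29 stood at 85.6 CPM in MASH-Phe-free, 68.3 in MASH and 82.0 in Chow gated cells, against 17.0 CPM in MASH-Phe-free, 29.1 in MASH and 23.9 in Chow CD4 cells, a log2 fold change of 1.57 ± 0.17 (adjusted p = 0.000251). Markers of other lineages were also read here. Cd79b, the other B-cell receptor subunit, stood at 21.0 CPM in MASH-Phe-free, 18.4 in MASH and 24.9 in Chow gated cells, against 4.99 CPM in MASH-Phe-free, 5.71 in MASH and 4.57 in Chow CD4 cells and rose by 1.90 on the log2 scale (adjusted p = 0.000175), whereas Ms4a1, which encodes the B-cell protein CD20, did not pass the test (0.17). The B-cell list summed to 22.4, 24.2 and 29.96 CPM in gated cells, against 7.93, 10.3 and 8.53 CPM in CD4 cells, of MASH-Phe-free, MASH and Chow. The neutrophil list summed to 2797, 54.6 and 2548 CPM in gated cells, against 2940, 858 and 3299 CPM in CD4 cells, of MASH-Phe-free, MASH and Chow, and 1 of its 4 genes, Camp, fell (adjusted p = 0.00428, and 0.0686 without the mixed barcodes). The NK list summed to 47.5, 21.1 and 15.6 CPM in gated cells, against 78.3, 44.8 and 49.3 CPM in CD4 cells, of MASH-Phe-free, MASH and Chow. Of its 3 tested genes Ncr1, an activating NK receptor, and Gzma, the protease granzyme A, fell, by 1.68 and 1.07 on the log2 scale. Once the mixed barcodes were left out Gzma was the only NK gene left to test and did not pass (0.88, adjusted p = 0.258). Prf1, Id2 and Cxcr6, which NK cells also express, kept log2 fold changes of -1.42, -1.63 and -2.18 without those barcodes, each called. Of 3 tested plasma-cell genes 1 rose, Xbp1 (0.56), a secretory-pathway transcription factor that T cells also express. The part of these RNAs in the calls was not tested beyond the values without mixed barcodes.

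DESeq2 called fewer genes, 1551 higher and 1030 lower. Without the mixed barcodes 2653 genes rose and 2214 fell, and 4392 of the 4598 calls were kept.

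**Figure D3:**
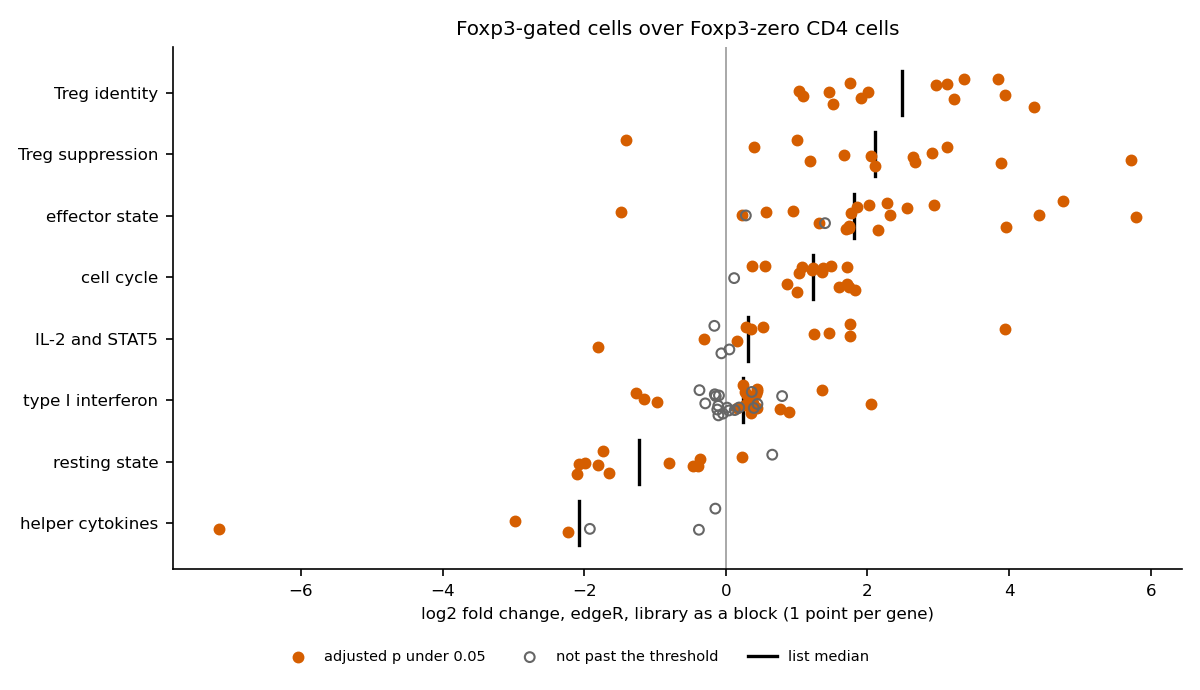
Log2 fold change of Foxp3-gated over Foxp3-zero CD4 cells (horizontal axis) for the members of each gene list (rows), 1 point per gene, filled where the adjusted p was under 0.05, with a bar at the list median. The identity list has its median at 2.48 and the suppression list at 2.11, whereas the resting list has its median at -1.23.

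Gated cells also differed among themselves, and after thinning to 4081 UMIs each of the genes below was seen in a part of the members. A cell in which a gene was not seen may still make it. Icos, a costimulatory receptor of effector T cells, was seen in 66.3% of gated cells in MASH-Phe-free, 56.5% in MASH and 59.8% in Chow, against 24.1%, 21.1% and 19.5% of CD4 cells in MASH-Phe-free, MASH and Chow. Itgae was seen in 39.9% of gated cells in MASH-Phe-free, 34.6% in MASH and 39.2% in Chow. Cd44, the hyaluronan receptor of activated T cells, was seen in 36.8% of gated cells in MASH-Phe-free (95% interval 31.8% to 42.1%), 26.7% in MASH (22.4% to 31.4%) and 25.1% in Chow (20.9% to 29.7%). Icos and Cd44 were seen most often in MASH-Phe-free, and the Cd44 interval of that library lay above those of MASH and Chow. In B cells, Icos was seen in at most 0.195% and Itgae in at most 0.589%, while Cd44, which B cells also make, was seen in 17.1% to 19.3%.

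Ccr7 was seen in a smaller part, with 18.7% of gated cells in MASH-Phe-free (14.8% to 23.2%), 24.9% in MASH (20.7% to 29.5%) and 25.1% in Chow (20.9% to 29.7%), against 63.7%, 64.8% and 68.6% of CD4 cells in MASH-Phe-free, MASH and Chow. Pdcd1 was seen in 19.5% of gated cells in MASH-Phe-free, 19.3% in MASH and 17.3% in Chow, against at most 0.0886% of B cells. Cxcr5, the receptor that leads cells into B-cell follicles, was seen in 9.63% of gated cells in MASH-Phe-free, 6.36% in MASH and 7.04% in Chow, against 7.56%, 6.19% and 5.46% of CD4 cells in MASH-Phe-free, MASH and Chow. The intervals of Ccr7, Pdcd1 and Cxcr5 overlapped between the libraries. Bcl6, the transcription factor gene of follicular cells, was seen in 7.08%, 5.85% and 5.78% of gated cells in MASH-Phe-free, MASH and Chow, against 5.38%, 6.72% and 5.02% of CD4 cells. B cells make Ccr7, Cxcr5 and Bcl6 themselves, so these shares have no cell type here that should lack them.

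Between treatments, gated cells of the MASH library held more RNA of interferon-induced genes and less of glucocorticoid-induced genes than those of the Chow library. In MASH-Phe-free the interferon-induced genes were lower than in MASH, while the genes of the glucocorticoid list had a median near the MASH level, with single genes above and below it. Each treatment is 1 library, so no test could be made, and the MASH library is part of both comparisons. Among genes with at least 20 UMIs, 6.04% had a MASH over Chow ratio of at least 1.5 and 5.21% one of at most 1/1.5. For MASH-Phe-free over MASH these were 5.38% and 5.53%, and for MASH-Phe-free over Chow 5.85% and 5.65%.

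Many interferon-induced genes are known to carry the interferon-stimulated response element before their start. Its letters GAAANNGAAA were searched on both strands in the RefSeq promoters (GRCm38.p6, 250 bases before to 50 after the start; the libraries used GRCm39, so genes were matched by symbol only). They were found in 14 of 27 matched promoters of the interferon list (51.9%), in 9 of 9 of the interferon-gamma-induced GTPases (100%), in 1 of 12 of the glucocorticoid list (8.33%) and in 943 of all 27025 promoters (3.49%). Such a match describes letters and not binding. The 170 bases before the start of Isg15, Ifit1, Ifit3 and Rsad2, whose values follow, show how such matches lie, and are printed in the direction of the gene, with the matches in capitals (GAAANNGAAA, or its reverse complement TTTCNNTTTC). They lie at chr4:156200819-156200988 on the minus strand (Isg15, 3 overlapping matches), chr19:34640719-34640888 on the plus strand (Ifit1, 2 matches), chr19:34583359-34583528 on the plus strand (Ifit3, 2 matches) and chr12:26456453-26456622 on the minus strand (Rsad2, 1 match).
Isg15: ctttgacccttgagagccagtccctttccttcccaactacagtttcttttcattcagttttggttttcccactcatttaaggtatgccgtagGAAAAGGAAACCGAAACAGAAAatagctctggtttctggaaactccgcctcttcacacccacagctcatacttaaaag
Ifit1: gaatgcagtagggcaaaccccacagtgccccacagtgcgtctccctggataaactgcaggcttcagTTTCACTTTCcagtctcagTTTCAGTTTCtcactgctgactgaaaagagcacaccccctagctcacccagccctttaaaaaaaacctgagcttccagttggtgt
Ifit3: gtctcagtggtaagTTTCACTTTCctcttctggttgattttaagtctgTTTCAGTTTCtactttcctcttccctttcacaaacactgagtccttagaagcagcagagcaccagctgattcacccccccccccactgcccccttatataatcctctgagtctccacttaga
Rsad2: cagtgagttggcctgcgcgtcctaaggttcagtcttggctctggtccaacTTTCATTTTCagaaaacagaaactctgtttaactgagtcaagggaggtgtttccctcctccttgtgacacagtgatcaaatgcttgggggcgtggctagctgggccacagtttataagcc

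Of 34 measured interferon-induced genes 31 had a higher level in MASH than in Chow gated cells, against 46.5% of all measured genes. The interval of the ratio lay above 1 for 22 of them, against 8.49% of all genes, and 12 passed 1.5-fold, against 6.04%. The median log2 ratio, with 10 CPM added to both values here and for every list below, was 0.36, against -0.02 over all genes. Isg15, which encodes a ubiquitin-like protein attached to target proteins, stood at 99.6 CPM in MASH-Phe-free, 135 in MASH and 65.4 in Chow gated cells. The MASH over Chow ratio was 2.07 (1.78 to 2.40), and the MASH-Phe-free over MASH ratio was 0.737 (0.642 to 0.845). MASH was the highest library, and Chow the lowest.

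Ifi44, an interferon-induced protein gene of low level, stood at 10.2 CPM in MASH-Phe-free, 30.6 in MASH and 6.47 in Chow gated cells, with ratios of 4.73 (3.10 to 7.46) for MASH over Chow and 0.333 (0.222 to 0.488) for MASH-Phe-free over MASH. Without the mixed barcodes the MASH over Chow ratio of Ifi44 was 3.11. Rsad2, the antiviral enzyme viperin, stood at 4.95 CPM in MASH-Phe-free, 21.8 in MASH and 8.15 in Chow gated cells, with ratios of 2.67 (1.78 to 4.10) for MASH over Chow and 0.227 (0.127 to 0.385) for MASH-Phe-free over MASH. Its MASH over Chow ratio was 1.75 without the mixed barcodes. Both genes were highest in MASH, and Rsad2 was lowest in MASH-Phe-free.

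Ifit3, an antiviral protein that binds foreign RNA together with IFIT1, stood at 9.32 CPM in MASH-Phe-free, 25.5 in MASH and 14.6 in Chow gated cells, with ratios of 1.74 (1.26 to 2.43) for MASH over Chow and 0.366 (0.238 to 0.549) for MASH-Phe-free over MASH. Ifit1, which binds RNA that lacks the host cap, stood at 23.3 CPM in MASH-Phe-free, 51.7 in MASH and 46.7 in Chow gated cells. Its MASH over Chow ratio of 1.11 (0.906 to 1.35) included 1, whereas without the mixed barcodes it was 1.32 (1.05 to 1.65). The MASH-Phe-free over MASH ratio of Ifit1 was 0.451 (0.344 to 0.586). Ifi27l2a, the most abundant of the list, stood at 2093 CPM in MASH-Phe-free, 2401 in MASH and 1461 in Chow gated cells, with ratios of 1.64 (1.59 to 1.70) for MASH over Chow and 0.872 (0.845 to 0.899) for MASH-Phe-free over MASH. For Ifi27l2a MASH-Phe-free lay between MASH and Chow.

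For MASH-Phe-free over MASH, 33 of 35 measured interferon-induced genes were lower, against 51.9% of all genes, with the interval below 1 for 21, against 7.79%. For 2 genes, the exonuclease gene Isg20 and Slfn8, MASH-Phe-free was higher (48.1% of all genes). The interval lay above 1 for 1 of the 35, Isg20, against 7.67% of all genes, and for 0 of 34 without the mixed barcodes (Isg20 1.07, 0.916 to 1.24). With those barcodes left out, 29 of the 34 were lower and 5 higher, with the interval below 1 for 15. Over all members the median log2 ratio was -0.26, against -0.01 over all genes. Set against Chow, MASH-Phe-free was higher for 20 of 34 genes, against 45.4% of all genes, and lower for 14, against 54.6%, with a median of 0.05. The interval lay above 1 for 8 of them, against 9.52% of all genes, and below 1 for 4, against 11.5%. When the mixed barcodes were left out the interval lay above 1 for 11 genes and below 1 for 1, with a median of 0.13. The CD4 cells of these libraries gave medians of 0.41 for MASH over Chow (35 of 36 genes higher, against 45.8% of all genes) and -0.19 for MASH-Phe-free over MASH (31 of 36 lower, against 49.4%). Without the mixed barcodes the medians in gated cells were 0.34 and -0.22. Under edgeR's TMM factors they were 0.38 and -0.26, and under DESeq2's size factors 0.38 and -0.25.

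Smaller shifts in the same direction were seen in related lists. Of 14 interferon-gamma-induced GTPase genes 12 were higher in MASH than in Chow (median log2 ratio 0.23), against 46.5% of all genes, and 12 were lower in MASH-Phe-free than in MASH (-0.14), against 51.9%. Gbp8, a guanylate-binding protein, stood at 25.9 CPM in MASH-Phe-free, 36.7 in MASH and 24.9 in Chow gated cells, with ratios of 1.47 (1.14 to 1.91) for MASH over Chow and 0.706 (0.537 to 0.923) for MASH-Phe-free over MASH. Of 14 measured genes of MHC class I presentation 12 were higher in MASH than in Chow (0.11) and 12 lower in MASH-Phe-free than in MASH (-0.10), beside the same 46.5% and 51.9% of all genes. H2-T23, a non-classical class I chain, stood at 585 CPM in MASH-Phe-free, 667 in MASH and 575 in Chow gated cells, with ratios of 1.16 (1.10 to 1.23) and 0.877 (0.827 to 0.929).

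Of 13 measured genes of the glucocorticoid list 12 were lower in MASH than in Chow gated cells, against 53.5% of all genes. The interval lay below 1 for 10, against 10.9%, and 8 were past 1.5-fold, against 5.21%. Beside induced genes the list holds Nr3c1, the gene of the receptor itself. It shares Il7r with the resting list and Cxcr4 with the homing list. With the mixed barcodes left out 7 intervals lay below 1. For MASH-Phe-free over MASH the interval lay above 1 for 4 of the 13 (Il7r, Tsc22d3, Ddit4 and Txnip), against 7.67% of all genes, and below 1 for 2 (Dusp1 and Nr3c1), against 7.79%. Median log2 ratios were -0.58 for MASH over Chow, -0.04 for MASH-Phe-free over MASH and -0.64 for MASH-Phe-free over Chow. Fkbp5, a co-chaperone of the glucocorticoid receptor and one of its targets, stood at 91.7 CPM in MASH-Phe-free, 94.8 in MASH and 237 in Chow gated cells. Its MASH over Chow ratio was 0.399 (0.354 to 0.450), and its MASH-Phe-free over MASH ratio of 0.968 (0.832 to 1.13) included 1. Il7r stood at 528 CPM in MASH-Phe-free, 436 in MASH and 986 in Chow gated cells, with ratios of 0.442 (0.418 to 0.467) for MASH over Chow and 1.21 (1.13 to 1.29) for MASH-Phe-free over MASH. Chow was the highest library for both, and Il7r was also higher in MASH-Phe-free than in MASH.

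Tsc22d3, which encodes the glucocorticoid-induced leucine zipper, stood at 219 CPM in MASH-Phe-free, 191 in MASH and 346 in Chow gated cells, with ratios of 0.553 (0.506 to 0.604) for MASH over Chow and 1.15 (1.03 to 1.27) for MASH-Phe-free over MASH. Cxcr4, the receptor for CXCL12, stood at 62.3 CPM in MASH-Phe-free, 57.8 in MASH and 119 in Chow gated cells, a MASH over Chow ratio of 0.485 (0.414 to 0.568). Txnip, an inhibitor of thioredoxin, stood at 480.0 CPM in MASH-Phe-free, 428 in MASH and 792 in Chow gated cells, with ratios of 0.541 (0.510 to 0.573) for MASH over Chow and 1.12 (1.05 to 1.20) for MASH-Phe-free over MASH. The exception was Errfi1, at a ratio of 1.47 (0.859 to 2.56). In CD4 cells 12 of 14 genes were lower in MASH than in Chow, against 54.2% of all genes, with a median of -0.51, and Chow was the highest library for Fkbp5 there too (58.2 CPM in MASH-Phe-free, 54.2 in MASH and 143 in Chow CD4 cells). How the animals were handled before the spleens were taken is not given in the sources used here.

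**Figure D4:**
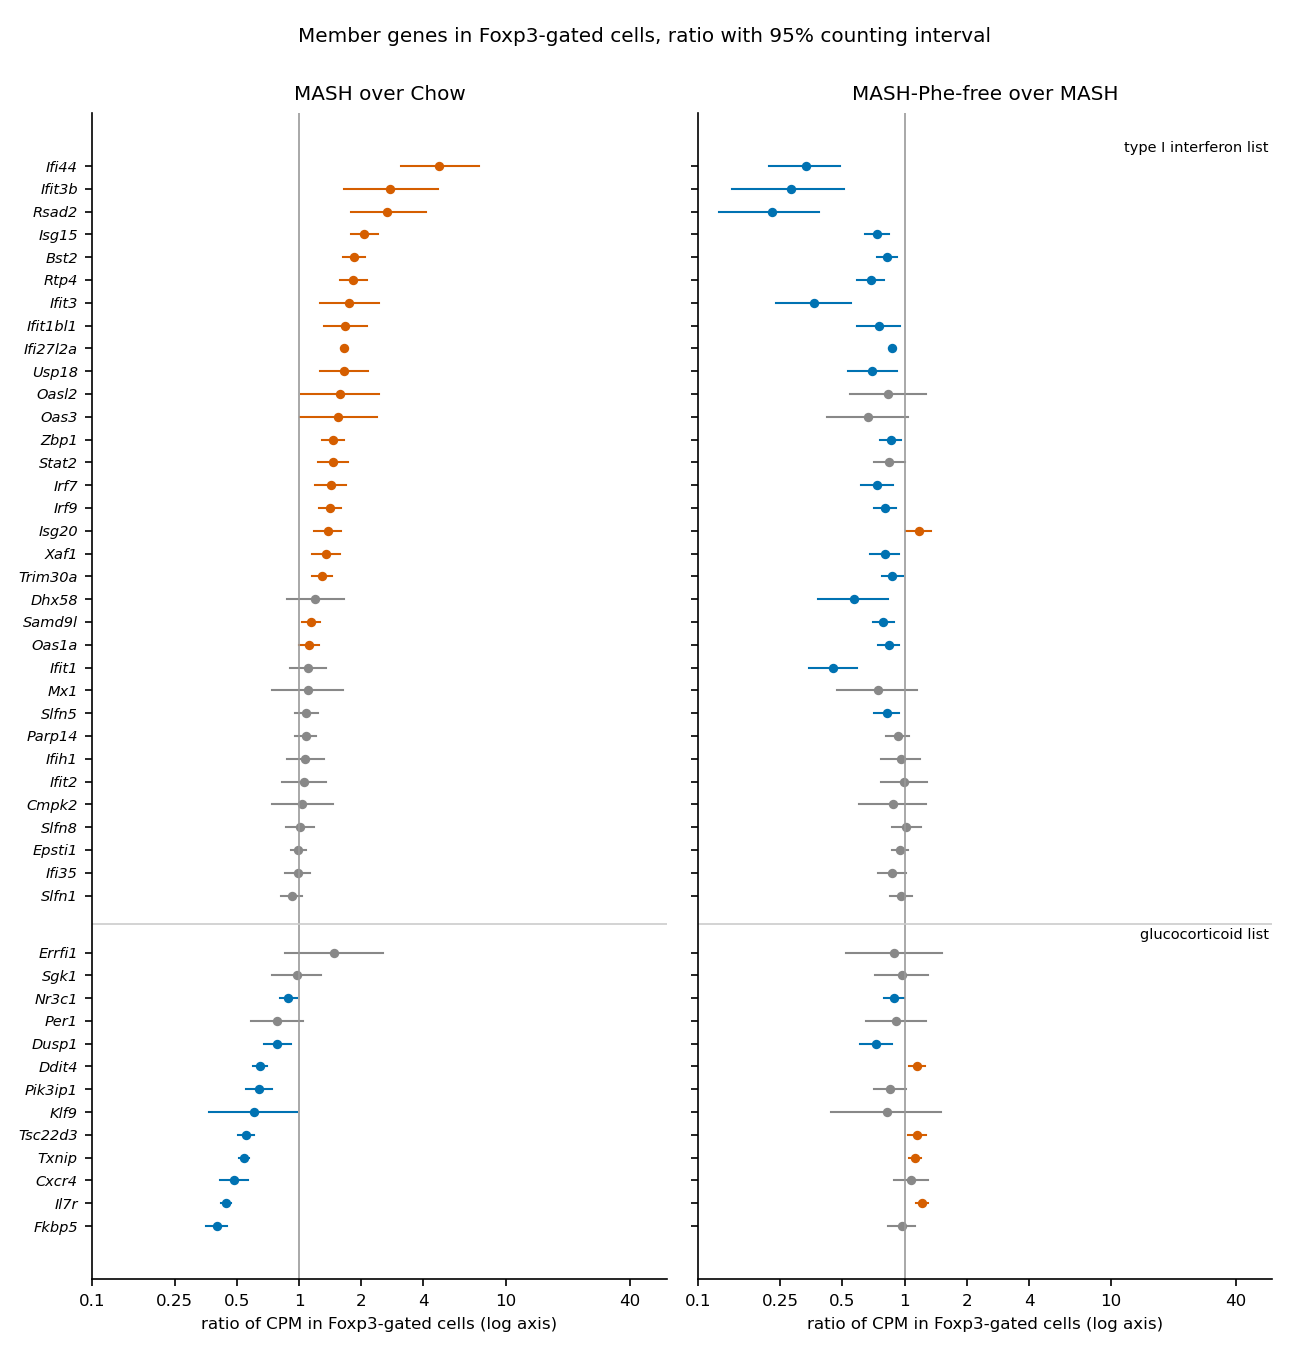
Ratio of CPM in gated cells (horizontal log axis) for genes of the interferon and glucocorticoid lists, MASH over Chow on the left and MASH-Phe-free over MASH on the right, with 95% counting intervals. Orange marks an interval above 1, blue one below 1 and grey one that includes 1. For MASH over Chow the interferon-induced genes run up to 4.73 (Ifi44), and the glucocorticoid-induced genes down to 0.399 (Fkbp5).

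The identity and suppression lists had medians within 0.10 of 0 between treatments. Identity genes had median log2 ratios of -0.08 (MASH over Chow) and 0.04 (MASH-Phe-free over MASH). Of the 14 genes 1, Gpr83, had a MASH over Chow ratio of at most 1/1.5, against 5.21% of all genes. Gpr83, a G-protein-coupled receptor, stood at 65.8 CPM in MASH-Phe-free, 62.9 in MASH and 98.3 in Chow gated cells, a MASH over Chow ratio of 0.640 (0.546 to 0.750). For MASH-Phe-free over Chow 10 of 14 identity genes were lower, against 54.6% of all genes, with a median of -0.10. The interval lay below 1 for 6 of them, against 11.5%, and above 1 for 3, against 9.52%. For suppression genes the medians were 0.02 for MASH over Chow, 0.04 for MASH-Phe-free over MASH and 0.06 for MASH-Phe-free over Chow. Without the mixed barcodes the medians of both lists lay between -0.07 and 0.01 in the 3 comparisons. Gzmb stood at 111 CPM in MASH-Phe-free, 111 in MASH and 71.2 in Chow gated cells, with ratios of 1.57 (1.35 to 1.82) and 0.993 (0.865 to 1.14), and Nt5e stood at 63.5 CPM in MASH-Phe-free, 58.3 in MASH and 91.3 in Chow gated cells, a MASH over Chow ratio of 0.638 (0.540 to 0.752). Gzmb was therefore lower in Chow, and Nt5e higher in Chow, than in the other libraries.

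The effector list had medians of 0.06 for MASH over Chow, 0.08 for MASH-Phe-free over MASH and 0.18 for MASH-Phe-free over Chow. For MASH-Phe-free over Chow 17 of 22 genes were higher, against 45.4% of all genes. The interval lay above 1 for 11, against 9.52%, and below 1 for 3, against 11.5%. Without the mixed barcodes these were 12 and 2, with a median of 0.18. In CD4 cells the median of this comparison was 0.30. Single effector genes differed more than the list medians. Klrg1 stood at 80.1 CPM in MASH-Phe-free, 143 in MASH and 66.9 in Chow gated cells, with ratios of 2.13 (1.85 to 2.47) for MASH over Chow and 0.561 (0.484 to 0.649) for MASH-Phe-free over MASH. After thinning it was seen in 11.05% of gated cells in MASH-Phe-free (95% interval 7.98% to 14.8%), 17.3% in MASH (13.7% to 21.4%) and 8.04% in Chow (5.56% to 11.2%), against at most 0.475% of B cells. Il1rl1, the receptor ST2 for interleukin-33, went the other way. It stood at 25.3 CPM in MASH-Phe-free, 9.06 in MASH and 25.6 in Chow gated cells, with ratios of 0.353 (0.236 to 0.518) and 2.80 (1.88 to 4.23). Tnfrsf9 stood at 194 CPM in MASH-Phe-free, 192 in MASH and 132 in Chow gated cells, a MASH over Chow ratio of 1.46 (1.31 to 1.63). MASH was the library farthest from the others for Klrg1 and Il1rl1, and Chow for Tnfrsf9.

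The resting list had medians of -0.09 for MASH over Chow, -0.16 for MASH-Phe-free over MASH and -0.26 for MASH-Phe-free over Chow. For MASH-Phe-free over Chow the interval lay below 1 for 8 of 12 genes, against 11.5% of all genes, and above 1 for 0, against 9.52%. Without the mixed barcodes these were 8 and 2, with a median of -0.22. In CD4 cells the median of this comparison was -0.15. Of the resting genes, Satb1 stood at 75.1 CPM in MASH-Phe-free, 129.5 in MASH and 121 in Chow gated cells, with a MASH over Chow ratio of 1.07 (0.949 to 1.22) and a MASH-Phe-free over MASH ratio of 0.580 (0.498 to 0.674). Bcl2 stood at 109 CPM in MASH-Phe-free, 141 in MASH and 199 in Chow gated cells, with ratios of 0.708 (0.636 to 0.788) and 0.774 (0.678 to 0.883), so that MASH-Phe-free was the lowest library for both genes. Nr4a1, an early gene of T-cell receptor signalling, stood at 56.2 CPM in MASH-Phe-free, 29.6 in MASH and 43.9 in Chow gated cells, with ratios of 0.675 (0.532 to 0.854) and 1.90 (1.5 to 2.40), and was lowest in MASH. Itgb1, the integrin beta 1 chain, stood at 585 CPM in MASH-Phe-free, 419 in MASH and 539.8 in Chow gated cells, with ratios of 0.775 (0.728 to 0.826) and 1.40 (1.31 to 1.49). It too was lowest in MASH.

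Among the homing receptors, Cxcr6, which binds CXCL16, stood at 8.16 CPM in MASH-Phe-free, 17.4 in MASH and 10.3 in Chow gated cells, with ratios of 1.69 (1.14 to 2.52) for MASH over Chow and 0.469 (0.292 to 0.736) for MASH-Phe-free over MASH. Ccr4, a receptor of skin-homing and T helper 2 cells, stood at 50.7 CPM in MASH-Phe-free, 33.1 in MASH and 38.1 in Chow gated cells, with ratios of 0.867 (0.684 to 1.10) and 1.53 (1.22 to 1.93). Cxcr6 was highest in MASH, and Ccr4 in MASH-Phe-free. Of the kinases of the interleukin-2 receptor, Jak3 stood at 66.1 CPM in MASH-Phe-free, 91.6 in MASH and 72.2 in Chow gated cells, with ratios of 1.27 (1.09 to 1.48) and 0.722 (0.609 to 0.854). Dusp5, a nuclear phosphatase that is switched on with ERK signalling, stood at 57.4 CPM in MASH-Phe-free, 78.6 in MASH and 55.4 in Chow gated cells, with ratios of 1.42 (1.19 to 1.69) and 0.730 (0.608 to 0.874). Both were highest in MASH.

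Of 17 measured genes of sterol and fatty acid metabolism 13 were higher in MASH than in Chow gated cells, against 46.5% of all genes, with a median log2 ratio of 0.19. In CD4 cells 8 of 17 were higher, near the 45.8% of all genes, with a median of -0.01; this difference between cell sets was not tested. Idi1, an enzyme of sterol synthesis, stood at 28.5 CPM in MASH-Phe-free, 34.5 in MASH and 18.0 in Chow gated cells, a MASH over Chow ratio of 1.92 (1.44 to 2.58). Fdps, the next enzyme of the pathway, stood at 51.3 CPM in MASH-Phe-free, 69.5 in MASH and 39.1 in Chow gated cells, with ratios of 1.78 (1.46 to 2.17) and 0.737 (0.607 to 0.893), and Hmgcs1, an enzyme near its entry, at 26.5 CPM in MASH-Phe-free, 44.6 in MASH and 29.0 in Chow gated cells, with ratios of 1.54 (1.21 to 1.95) and 0.595 (0.457 to 0.769). All 3 were highest in MASH.

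Genes of the response to amino acid shortage and of amino acid uptake had list medians near 0 between treatments. The ATF4 list had medians of 0.03 for MASH over Chow and -0.08 for MASH-Phe-free over MASH (0.03 without the mixed barcodes), and the amino acid transport list of -0.04 and -0.05. Of the 17 ATF4 genes 11 were measured in each of these comparisons, and the 10 CPM added draws ratios of low genes towards 1. For MASH-Phe-free over Chow 12 were measured, with a median of -0.01. The interval lay above 1 for 3 of them, against 9.52% of all genes, and below 1 for 0, against 11.5%. Asns, which makes asparagine, stood at 18.6 CPM in MASH-Phe-free, 11 in MASH and 4.55 in Chow gated cells, with ratios of 2.42 (1.39 to 4.38) and 1.69 (1.14 to 2.53). It was the highest in MASH-Phe-free. Slc7a5, a subunit of a transporter that carries phenylalanine among other large amino acids, stood at 20.7 CPM in MASH-Phe-free, 22.3 in MASH and 13.7 in Chow gated cells, with ratios of 1.63 (1.16 to 2.31) and 0.928 (0.671 to 1.28).

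Cell-cycle genes depended on the mixed barcodes. For MASH-Phe-free over MASH 17 of 17 were higher (median 0.23), against 48.1% of all genes, but 10 of 17 without the mixed barcodes (0.02). For MASH over Chow 3 of 17 were higher (-0.15), against 46.5%, but 8 of 17 without them. Mki67 was seen after thinning in 21.0% of gated cells in MASH-Phe-free, 19.1% in MASH and 19.1% in Chow.

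The genes with the largest ratios over all members were in part genes of neutrophils, monocytes and red cells (among them Fn1, Ltf, Lcn2, Retnlg, Ly6g and Car2). Without the mixed barcodes, the same rule named other genes, of which a part is described here. Ccl4 stood at 34.8 CPM in MASH-Phe-free, 1.89 in MASH and 56.1 in Chow gated cells. Its ratios were 0.0337 (0.0134 to 0.0706) for MASH over Chow and 18.4 (8.64 to 46.9) for MASH-Phe-free over MASH. It was seen in 13 gated cells of MASH-Phe-free and 11 of Chow, where a single cell held 30.6% and 49.1% of its UMIs. Ly6a, the surface protein Sca-1 and an interferon-induced gene, then stood at 493 CPM in MASH-Phe-free, 635 in MASH and 290.4 in Chow gated cells, a MASH over Chow ratio of 2.19 (2.04 to 2.35). Penk, the precursor of enkephalin peptides, stood at 193 CPM in MASH-Phe-free, 111 in MASH and 42.2 in Chow gated cells, a ratio of 2.62 (2.19 to 3.16). A single cell held 51.2% of the Penk UMIs in MASH-Phe-free and 16.8% in MASH. Lta, the cytokine lymphotoxin alpha, stood at 24.2 CPM in MASH-Phe-free, 43.5 in MASH and 21.5 in Chow gated cells, highest in MASH.

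Lower in MASH than in Chow were Fkbp5, Il7r and Cxcr4, described above, and Cd200, an inhibitory surface ligand, at 25.1 CPM in MASH-Phe-free, 24.0 in MASH and 45.7 in Chow gated cells. Rgs1, a regulator of chemokine receptor signals, stood at 89.6 CPM in MASH-Phe-free, 175 in MASH and 131 in Chow gated cells, a MASH-Phe-free over MASH ratio of 0.511 (0.442 to 0.589). Nfkbiz, a nuclear inhibitor of kappa B protein, stood at 50.6 CPM in MASH-Phe-free, 99.6 in MASH and 95.4 in Chow gated cells, a ratio of 0.508 (0.419 to 0.614). Ccr2, a receptor for monocyte-attracting chemokines, stood at 132 CPM in MASH-Phe-free, 69.9 in MASH and 109 in Chow gated cells, a ratio of 1.88 (1.61 to 2.21), whereas with all members the ratio was 1.13 (0.999 to 1.28). MASH-Phe-free was the lowest library for Rgs1 and Nfkbiz, and the highest for Ccr2. Ctrb1, a digestive protease of the exocrine pancreas, was listed at 56.6 CPM in Chow gated cells, 53.6% of it in 1 cell, and at 0 in the other libraries. It was also seen in CD4 cells of Chow, at 24.5 CPM.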

How the data were processed

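Spleen cells were profiled by 5′ single-cell RNA sequencing, 1 library per treatment. The deposited matrices hold UMI counts per gene and barcode for 33696 genes, per the file headers, with gene identifier and barcode lists beside them. The submitters' processing notes name Cell Ranger 9.0.1, Seurat 5.3.0 and GRCm39 (mm39). The annotation release and any removal of free RNA or doublets before deposit are not given in the sources used here. Free RNA in droplets adds UMIs to cells that do not make them.

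Barcodes with at least 300 genes, 500 UMIs and at most 10% mitochondrial UMIs were kept, and doublets called by Scrublet (scanpy 1.11.5) were kept in the main analysis and left out in an alternative. UMIs were summed per library and cell set and given per 1000000 UMIs of the set (CPM). Shares carry exact Clopper-Pearson intervals and ratios of CPM exact conditional Poisson intervals, both 95% and covering counting error only; a count of 0 allows up to 3 counts. Paired sets of the 3 libraries were compared with edgeR 4.0.16 (R 4.3.3; quasi-likelihood test, TMM, library as a block, low-count filter, Benjamini-Hochberg adjustment over all genes tested, adjusted p under 0.05), with the gate genes left out. The fits were also run on counts simulated with a fixed dispersion and without differences between libraries. That setting is simpler than these data and does not bear on the spread between the libraries. The pairing comes from the design, since both sets of a pair are cells of the same library. A gene near 0 in 1 set could pass the low-count filter through the other set alone. Such a gene could be called in 1 direction only. Alternatives were DESeq2 1.42.0, no block, no low-count filter, each library left out, thinning to 4081 UMIs, 2 or more Foxp3 UMIs, and stricter limits (500 genes, 1000 UMIs, 5% mitochondrial UMIs). In ratios of lists, 10 CPM was added to both values on the log2 scale. Genes at or past 1.5-fold were counted among those with at least 20 UMIs over both libraries, or 50 in an alternative.

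Named were the 8 highest and 8 lowest ratios of MASH over Chow and of MASH-Phe-free over MASH (4 and 4 for MASH-Phe-free over Chow) among genes with at least 50 UMIs, an interval that excludes 1, and in the higher library at least 30 CPM and a CPM of at least 10% of that in barcodes without Cd3e. In the paired test the 10 highest and 10 lowest called fold changes at a logCPM of at least 4 were named, in part summarised here. All identity and suppression genes and the 4 members of each other list farthest from a ratio of 1 were also eligible; other genes described were chosen after their values were seen. The members and gene lists were chosen with earlier results of these data known, and the mixed-barcode criteria were chosen after seeing the data. A second paired comparison within the members and a few single genes are not reported here.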

Additional observations from a re-analysis of the deposited data

Results flagged for a closer look

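The gate left out barcodes with a Cd8b1 UMI, and Foxp3 UMIs were also found there, in data that the comparisons above do not use. Of Cd3e-positive barcodes with Cd8b1 and without Cd79a UMIs, 5.52% held a Foxp3 UMI in MASH-Phe-free (50 of 905, 95% Clopper-Pearson interval 4.13% to 7.22%), 3.57% in MASH (41 of 1149, 2.57% to 4.81%) and 5.10% in Chow (62 of 1216, 3.93% to 6.49%). There are no control libraries. In B cells (Cd79a-positive and Cd3e-zero), which should lack Foxp3, the share with a Foxp3 UMI was 0.232% in MASH-Phe-free, 0.420% in MASH and 0.170% in Chow, at median depths of 7882, 8014.5 and 8147 UMIs. In these barcodes Ikzf2 stood at 1053 CPM in MASH-Phe-free, 1199 in MASH and 1108 in Chow, Ctla4 at 432, 581 and 545 CPM, and Il2ra at 186, 137 and 225 CPM, in MASH-Phe-free, MASH and Chow. Cd4 stood at 189, 181 and 231 CPM and Cd8b1 at 311, 414 and 248 CPM in MASH-Phe-free, MASH and Chow. Their median depth was 10065.5 UMIs in MASH-Phe-free, 11926 in MASH and 10313 in Chow, above the 6964, 7775 and 7902 UMIs of the gated cells, and Scrublet called 2, 0 and 1 of them doublets. The part of doublets or free RNA in these barcodes was not tested further.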

How the results depend on the processing

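The higher share of members in MASH and MASH-Phe-free than in Chow reversed when all filtered barcodes were the denominator, to log2 ratios of -0.18 for MASH over Chow and -0.14 for MASH-Phe-free over Chow. With at least 50 UMIs, 326 genes were at or above and 303 at or below 1.5-fold for MASH over Chow (686 and 592 with at least 20), 285 and 269 for MASH-Phe-free over MASH (606 and 623), and 318 and 332 for MASH-Phe-free over Chow (657 and 634). With no minimum these were 3465 and 2994, 2919 and 3379, and 3097 and 3313. For gated against CD4 cells, DESeq2 called 1551 genes higher and 1030 lower; without the library block edgeR called 2025 and 1654, and leaving out 1 library gave 1965 to 2099 higher and 1529 to 1731 lower. Single genes reversed: without mixed barcodes H2-Aa (-0.38) and Lyz2 (-1.53) for MASH over Chow and Irf8 (0.14) for MASH-Phe-free over MASH; Car2 (-0.73) for MASH-Phe-free over MASH at 2 or more Foxp3 UMIs; Penk (-0.37) for MASH-Phe-free over MASH after thinning; and Retnlg (-4.36) for MASH-Phe-free over Chow without called doublets. The cause was not tested. No other recomputed value was counted as reversed. Of these, 108 group-level and 532 gene-level ones lay within the counting interval or 1.5 times the count, or kept their call, and 69 gene-level ones lay outside it. For single-gene ratios and interferon medians, a change of side was not counted where the main interval already included equal levels. Counts of genes have no direction. Genes under about 20 UMIs could not be compared at this depth.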
